A study of Mus musculus with 6 samples.

Results

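The genes described here write, maintain and remove DNA methylation: the methyltransferases Dnmt1, Dnmt3a and Dnmt3b, their cofactors Dnmt3l and Uhrf1, the dioxygenases Tet1, Tet2 and Tet3, and the glycosylase gene Tdg. They were chosen by symbol, as every probeset that the platform annotation pairs with one of these 9 names. This gave 15 probesets of the 35556 on the array. Of these, 11 carry 1 symbol and measure 8 genes of the 19938 genes compared. The other 4 are annotated with both Tdg and its transcribed pseudogene Tdg-ps2, so every value given for Tdg is a joint value for the pair.

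In mouse embryonic stem (ES) cells, methyl groups are placed on cytosines in CpG pairs. Dnmt3a and Dnmt3b place new methyl groups, and Dnmt3l, which has no catalytic activity of its own, stimulates them. After each round of replication Uhrf1 recognises half-methylated CpG sites and brings in Dnmt1, which copies the mark to the new strand. TET enzymes oxidise methylcytosine, and Tdg excises the most oxidised forms so that base excision repair can restore an unmodified cytosine. In the early mouse embryo Tet3 oxidises the paternal genome of the zygote, while Tet1 and Tet2 are the TET genes known for their high activity in naive ES cells.

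RNA came from ES cells grown on gelatin and sorted by fluorescence into 2C::tomato-positive and 2C::tomato-negative cells, with 3 samples of each. In published work with this reporter, regulatory sequence of an endogenous retrovirus active in the two-cell embryo drives the tomato protein. All 6 samples are titled wild type; the protocol also names vehicle or 4OHT treatment to delete Kdm1a, without saying which of these samples received. Neither the strain nor the number of clones is stated, and a sort on the reporter gives a mixture of whatever states the reporter marks. Each sample was hybridised to 1 Affymetrix whole-transcript array. Levels are log2 values as normalised by the authors (RMA), a difference is positive minus negative on that scale, and a level of one probeset cannot be set against that of another.

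ES cell markers were detected on every array, and two-cell markers were higher on the positive ones. The ES cell markers Pou5f1, Nanog, Sox2 and Zfp42 lay between 10.24 and 12.98 on all 6 arrays. The two-cell markers averaged 8.78, 11.42 and 7.76 on positive arrays 1, 2 and 3, against 6.40, 6.41 and 6.68 on the negative arrays. In that list 17 of 18 measured genes were higher in positive cells, and positive array 2 had the highest average. Studies of the reporter helped to define that list, so its direction was no independent check. Kdm1a stood at 10.91, 11.02 and 10.92 on positive arrays, against 10.98, 11.25 and 10.98 on negative arrays (limma adjusted p = 0.918). With limma and Benjamini-Hochberg adjustment over all genes, 0 of 19938 genes passed an adjusted p of 0.05 (0%), and 0 passed with at least a 2-fold difference (0%). Without adjustment, p was under 0.05 for 388 genes with a higher mean (1.95%) and 490 with a lower one (2.46%), a split that median centring turned to 367 higher and 297 lower. Same-numbered positive and negative arrays deviated together, so the comparison was repeated with the replicate number as a block. This also gave 0 genes (0%), and p was under 0.05 before adjustment for 1076 higher (5.4%) and 1318 lower genes (6.61%).

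The comparison of positive with negative cells asks whether cells that express the two-cell reporter carry a different complement of methylation enzymes. Of the 9 genes, 5 had a higher mean in positive cells and 4 a lower one, against 39.8% and 60.2% of all genes. None of the 8 genes with probesets of their own passed the test, with or without the block, and the groups overlapped for all 8. Most other genes overlapped too. The positive arrays lay wholly above the negative ones for 4.08% of the 19938 genes, and wholly below them for 7.15%. The median over the 9 was 0.01, against -0.04 over all genes. The largest difference was that of the Tdg and Tdg-ps2 probesets, which were lower on every positive array. The next largest was that of Dnmt3l, which was higher in positive cells in all 3 pairs.

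**Figure D1:**
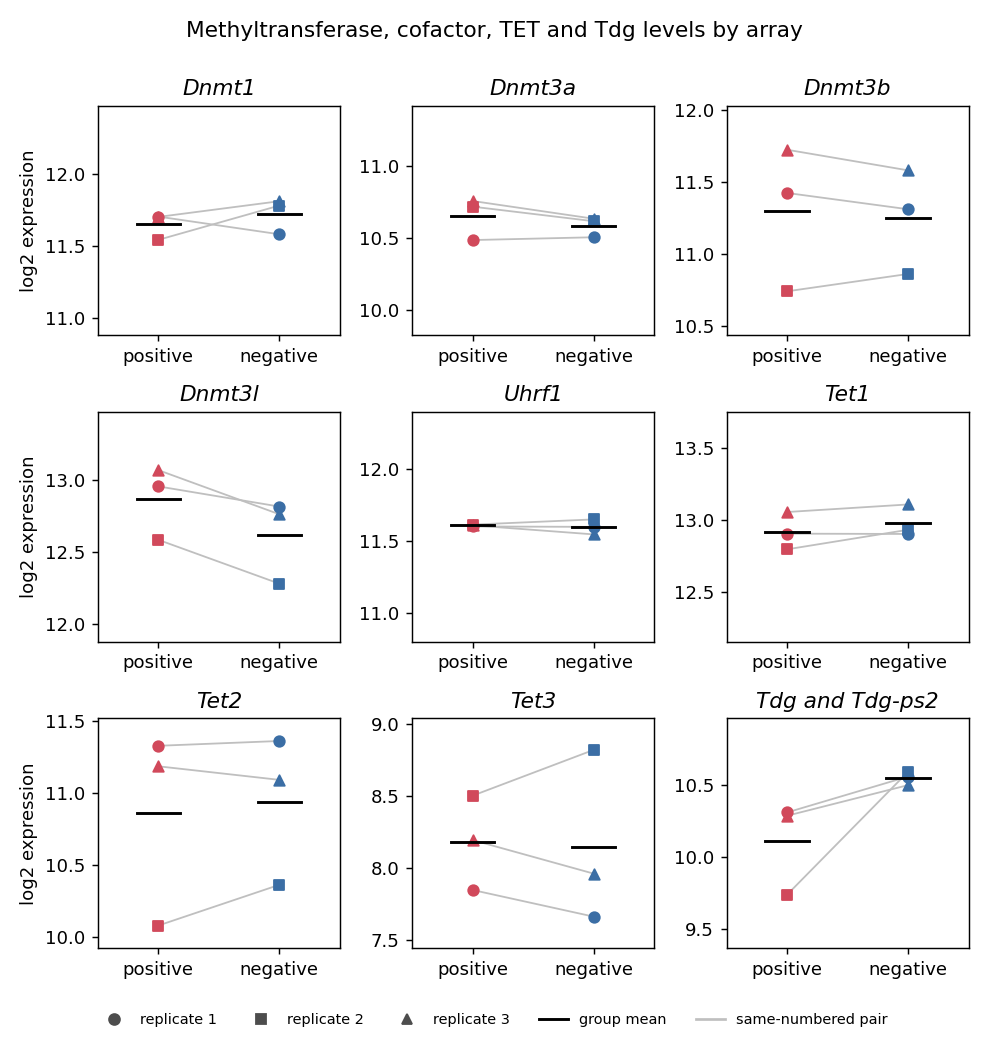
Log2 level of each member on each array, positive cells at left and negative cells at right in every panel. Marker shapes give the replicate number, grey lines join same-numbered arrays, black bars are group means of 3 arrays, and every panel spans the same 1.6 log2 units. Tdg and Tdg-ps2 alone separate by group, while Dnmt3b, Tet2 and Tet3 (its brighter probeset) separate by replicate number.

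The maintenance pair varied little over the 6 arrays. Dnmt1 had levels of 11.71, 11.54 and 11.70 on positive arrays, against 11.58, 11.78 and 11.81 on negative arrays. The groups overlapped, with negative array 1 below positive arrays 1 and 3. The difference was -0.08 (SE 0.12, limma adjusted p = 0.955), and its 95% interval ran from -0.35 to 0.20, or 0.785-fold to 1.15-fold. Uhrf1, the reader of half-methylated CpG sites, had 11.60, 11.61 and 11.61 on positive arrays, against 11.60, 11.65 and 11.54 on negative arrays. All 6 arrays lay within 0.10 of each other. Its difference was 0.01 (SE 0.10, limma adjusted p = 0.993), with an interval of 0.859-fold to 1.18-fold. Neither difference exceeded its SE.

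Dnmt3a, the first of the de novo enzymes, averaged 10.66 ± 0.15 in positive cells and 10.59 ± 0.07 in negative cells (SD, n = 3 each). Its levels were 10.49, 10.72 and 10.76 on positive arrays, against 10.51, 10.62 and 10.64 on negative arrays. The difference of 0.07 (SE 0.12, limma adjusted p = 0.962) was smaller than the SD of the positive arrays. Dnmt3b, the second, had 11.42, 10.74 and 11.73 on positive arrays, against 11.31, 10.86 and 11.58 on negative arrays. Both low values belonged to replicate 2, and the pairs differed by 0.11, -0.12 and 0.14. The mean difference was 0.05 (SE 0.29, limma adjusted p = 0.990). Its interval was -0.20 to 0.29 with the replicate number as a block, against -0.63 to 0.73 without it.

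Dnmt3l, the cofactor of the de novo enzymes, was the member with a probeset of its own that differed most. Its levels were 12.96, 12.59 and 13.07 on positive arrays, against 12.82, 12.28 and 12.76 on negative arrays. Within each pair the positive array was higher, by 0.14, 0.31 and 0.31, while positive array 2 lay below negative arrays 1 and 3. Across all genes, 15.1% were higher in all 3 pairs, and Dnmt3l was the only 1 of the 8 members to be so; 0 of the 8 were lower in all 3 pairs, against 23.7% of genes. The mean difference was 0.25 (SE 0.19), or 1.19-fold, and did not pass (limma adjusted p = 0.915). With replicate number as a block, the unadjusted p was 0.0371 and the interval 1.01-fold to 1.40-fold, but the gene did not pass (adjusted p = 0.405). It was the only member with an unadjusted p under 0.05 in the blocked fit of the 8 genes, where 5.4% of all genes had one with a higher and 6.61% with a lower mean. Without the block 0 of the 8 had one. Without negative array 2 the difference was 0.08, and without positive array 2 it was 0.39.

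The 3 TET genes did not differ between the groups beyond their spread. Tet1 is covered by 3 probesets, and the brightest had 12.91, 12.80 and 13.06 on positive arrays, against 12.90, 12.93 and 13.11 on negative arrays. Its difference was -0.06 (SE 0.12, limma adjusted p = 0.968), with an interval of 0.787-fold to 1.17-fold. The other Tet1 probesets differed by -0.01 and -0.05. All 3 probesets had their highest levels in replicate 3 of both groups.

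Tet2 had levels of 11.33, 10.08 and 11.19 on positive arrays, against 11.36, 10.36 and 11.09 on negative arrays. Replicate 2 was low in both groups, by about 1 log2 unit, and the pairs differed by -0.03, -0.28 and 0.09. The mean difference was -0.07 (SE 0.39, limma adjusted p = 0.988). Its interval of 0.504-fold to 1.79-fold narrowed to 0.788-fold to 1.14-fold in the blocked fit. The sign of the mean rested on single arrays, since it was 0.32 without positive array 2 and -0.36 without negative array 2.

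Tet3, the TET gene of the oocyte and zygote, had 7.85, 8.50 and 8.19 on positive arrays, against 7.66, 8.82 and 7.96 on negative arrays by its brighter probeset. Replicate 2 was the highest in both groups, the opposite of Tet2. The difference of 0.03 (SE 0.31, limma adjusted p = 0.993) was far below the SD of 0.33 and 0.60 in positive and negative cells. The pairs differed by 0.19, -0.32 and 0.23, and the mean was 0.37 without negative array 2 and -0.21 without negative array 1. The second Tet3 probeset differed by -0.02 and varied less, between 7.62 and 8.02. Its highest level was on negative array 3, above both replicate 2 arrays, so the 2 probesets disagree on whether replicate 2 stands out.

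Each of the 8 intervals, with and without the block, lay inside a 2-fold difference in either direction. The same held for 93.1% of all genes without the block and for 97.7% with it. Fitted among all annotated probesets in place of genes, the interval of Tet2 reached slightly beyond 2-fold, to -1.01. RNA levels are all that was measured: neither the proteins nor DNA methylation was.

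**Figure D2:**
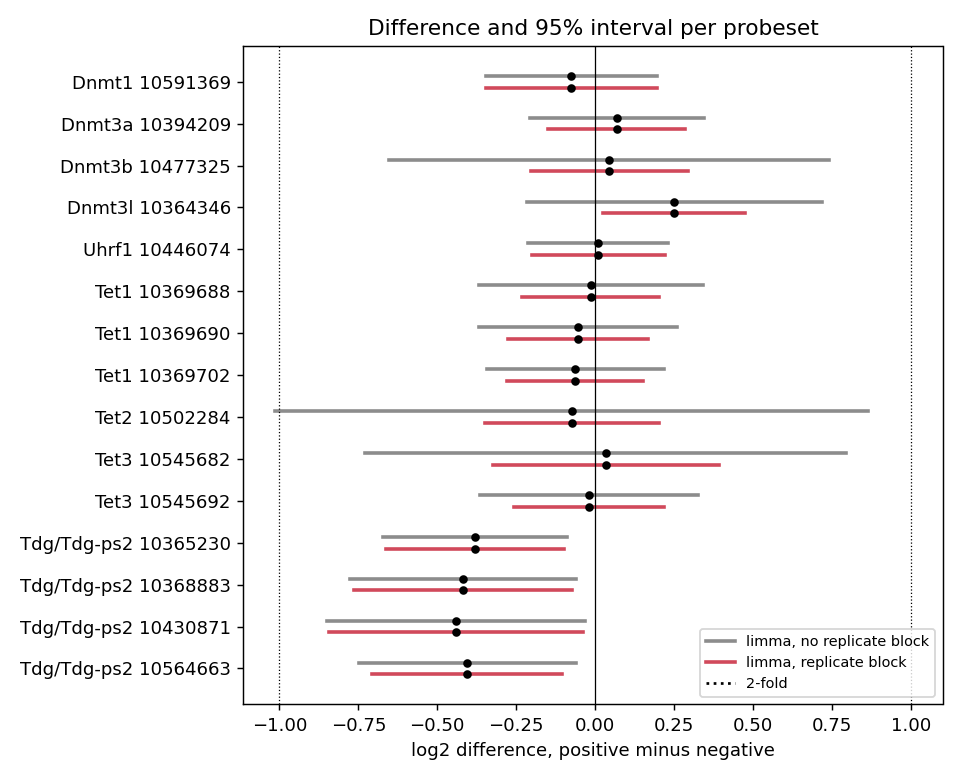
Log2 difference, positive minus negative, for each of the 15 probesets, from the fits over all annotated probesets. Points are the estimates, grey bars the 95% intervals without and red bars with the replicate number as a block, and dotted lines mark 2-fold. The 4 Tdg and Tdg-ps2 probesets lie wholly below 0 in both fits, and Dnmt3l lies above 0 in the blocked fit.

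The Tdg and Tdg-ps2 probesets separated the groups. Probeset 10430871, the brightest, had 10.31, 9.74 and 10.29 on positive arrays, against 10.56, 10.59 and 10.50 on negative arrays. Probeset 10365230 had 9.88, 9.58 and 9.92 on positive arrays, against 10.19, 10.19 and 10.14 on negative arrays. Every positive array was below every negative array, and positive array 2 was the lowest. Probeset 10368883 had 10.18, 9.73 and 10.19 on positive arrays, against 10.48, 10.47 and 10.40 on negative arrays. Probeset 10564663 had 10.20, 9.75 and 10.16 on positive arrays, against 10.46, 10.42 and 10.45 on negative arrays. The 3 negative arrays lay within 0.09 of each other on each probeset.

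The differences ranged between -0.44 and -0.38 over the 4 probesets, or 0.737-fold to 0.768-fold. All 4 were lower without overlap, which 6.65% of the 23410 annotated probesets were, and all 4 were lower in all 3 pairs, as were 22.7%. A difference at least this low was found for 1.95% of probesets. For probeset 10430871 the pairs differed by -0.25, -0.86 and -0.21, with a mean difference of -0.44 (SE 0.17). Without the block the 4 had unadjusted p-values between 0.0179 and 0.0387, against 2.26% of probesets lower at p under 0.05, and with it between 0.0182 and 0.0376, against 5.86%. None passed over all probesets, where 0 did (0%): their limma adjusted p was 0.911 without the block and up to 0.427 with it, where also 0 probesets passed (0%).

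The 4 probesets are annotated with the same transcripts and may share probes, so they are not 4 independent measurements. Without positive array 2 the 4 differences lay between -0.28 and -0.25, and all 4 kept the groups apart. Leaving out both arrays numbered 2 gave -0.27 to -0.23, again without overlap on any of the 4. Fewer transcripts of Tdg and fewer of Tdg-ps2 cannot be told apart here, nor, in a bulk sample, fewer cells of a type and less RNA per cell.

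Markers of other cell types were read beside Tdg and Tdg-ps2, with 60.2% of all genes having a lower mean in positive cells. The fibroblast list had 13 of 17 measured genes lower in positive cells and averaged 6.70, 7.27 and 6.58 on positive arrays, against 6.99, 7.32 and 7.04 on negative arrays. Among the positive arrays, number 2 had the highest average in this list, as in the endoderm and trophoblast lists below. The endoderm list had 13 of 15 lower and averaged 7.31, 7.46 and 7.18 on positive arrays, against 7.70, 7.48 and 7.59 on negative arrays. The trophoblast list had 7 of 13 lower and averaged 8.09, 8.75 and 7.97 on positive arrays, against 8.07, 8.58 and 8.28 on negative arrays. No marker has a true 0 on this scale, and the part of such cells in the Tdg and Tdg-ps2 values was not tested.

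**Figure D3:**
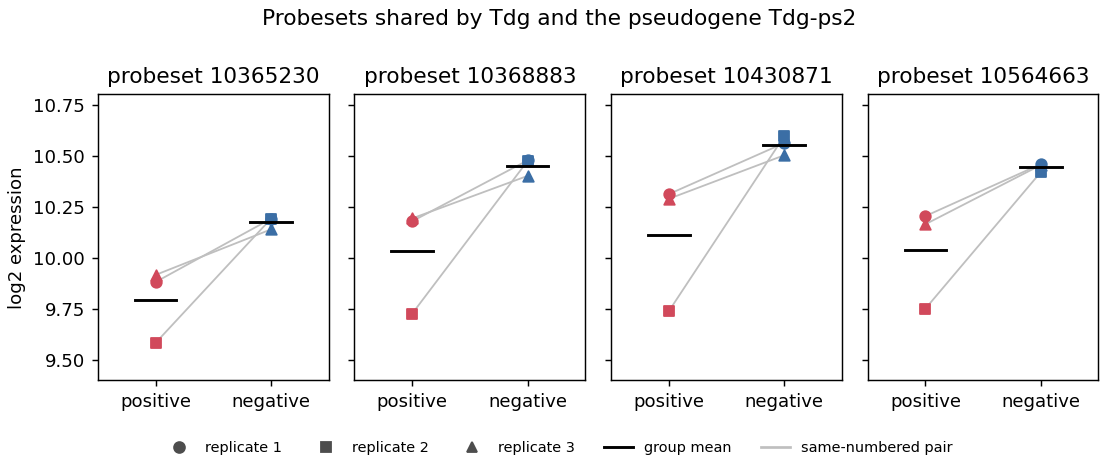
Log2 levels of the 4 probesets annotated with both Tdg and Tdg-ps2, positive cells at left and negative cells at right in each panel, on 1 common axis. Marker shapes give the replicate number, grey lines join same-numbered arrays and black bars are means of 3 arrays. Positive array 2 is the lowest on each probeset, between 9.58 and 9.75, and the negative arrays lie close together.

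The promoter of Tdg is shown because the probesets that separated the groups are annotated with it, together with Tdg-ps2, whose promoter is not shown. The window runs over 300 bases of RefSeq assembly GRCm38.p6, from 250 bases before the annotated start to 50 after it, at chr10:82629588-82629887 on the plus strand, with CpG pairs in capitals.
Tdg: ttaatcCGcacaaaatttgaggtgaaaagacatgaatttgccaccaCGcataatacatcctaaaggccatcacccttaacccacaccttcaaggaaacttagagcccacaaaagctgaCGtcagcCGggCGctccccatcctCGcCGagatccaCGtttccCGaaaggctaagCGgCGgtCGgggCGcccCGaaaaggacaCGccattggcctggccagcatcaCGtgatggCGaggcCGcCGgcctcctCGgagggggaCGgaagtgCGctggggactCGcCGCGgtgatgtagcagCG
It holds 26 CpG pairs, against a median of 7 over 32841 such windows, and 83.1% of windows hold fewer. It was searched on both strands for 4 motifs: the CCAAT box (CCAAT), the GC box (GGGCGG), the octamer bound by Pou5f1 (ATGCAAAT) and an E2F-type motif (TTTNNCGC). The window holds 1 CCAAT box, a motif found in 37.4% of all windows, and no match to the other 3. GC boxes are in 35.7% of windows, octamers in 1.74% and E2F-type motifs in 5.17%. Each motif was counted separately, so a base can belong to matches of more than one, and a match describes the letters only.

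For most of these genes, as for most genes on the arrays, replicate 2 differed more from the other arrays than the groups differed from each other. The mean of the 2 arrays numbered 2 differed from that of the other 4 by more than positive cells differed from negative cells for 7 of the 8 members, and for 66.7% of all genes. Tet2 was lower on the replicate 2 arrays by a shift of -1.02, with -1.18 among positive and -0.87 among negative arrays. Dnmt3b had a shift of -0.71 and Dnmt3l one of -0.47, while the brighter Tet3 probeset had 0.75. Only 3.00% of genes had a replicate 2 shift as large as that of Tet2, 6.63% as large as that of Tet3, 7.41% as large as that of Dnmt3b and 15.9% as large as that of Dnmt3l. Dnmt1, Dnmt3a, Uhrf1 and Tet1 shifted by -0.04, 0.07, 0.04 and -0.13. The shift of Dnmt3a, 0.072, barely exceeded its difference of 0.068.

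Both replicate 2 arrays were below the other 4 for 3 of the 8 members (Dnmt3b, Dnmt3l and Tet2), as they were for 21.8% of all genes. They were above the other 4 for 2, Tet3 by its brighter probeset only and by a small margin Uhrf1, as for 17.8% of genes. Uhrf2, the paralogue of Uhrf1 that was picked after its values were seen, also had its highest levels there, at 10.42 on positive array 2 and 9.95 on negative array 2, against 9.09 to 9.45 on the others. The labels do not say what the replicate numbers mark, and these shifts are a description without a test.

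Marker lists of other cell states were also compared between replicate 2 and the other arrays. Of all 19938 genes, 11676 had a lower and 8262 a higher mean on the replicate 2 arrays, with a median shift of -0.06. The endoderm list had 8 members higher and 7 lower on the replicate 2 arrays, with a median shift of 0.01. The primed epiblast list averaged 8.31 on positive array 2 and 8.41 on negative array 2, against 9.0 to 9.35 on the other arrays, with 7 of its 11 measured members lower there. Otx2, which drives exit to the primed state, stood at 6.73 on positive array 2 and 6.75 on negative array 2, against 8.92 to 10.46 elsewhere, a shift of -2.89. The median shift of the list was -0.14, and Fgf5, another primed marker, had its highest level on positive array 2, at 7.89. The ES cell list was also lower there for 11 of 15 members, with averages of 11.64 on positive array 2 and 11.70 on negative array 2, against 11.89 to 12.03 on the others. The fibroblast list was higher there for 11 of 17 members, averaging 7.27 on positive array 2 and 7.32 on negative array 2, against 6.58 to 7.04. Its median shift was only 0.05, and the contractile genes Acta2 and Tagln had shifts of 2.85 and 2.90. For the trophoblast list, 9 of 13 were higher, with averages of 8.75 on positive array 2 and 8.58 on negative array 2, against 7.97 to 8.28. The part of these cells or states in the shifts of Tet2, Dnmt3b, Dnmt3l and Tet3 was not tested.

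**Figure D4:**
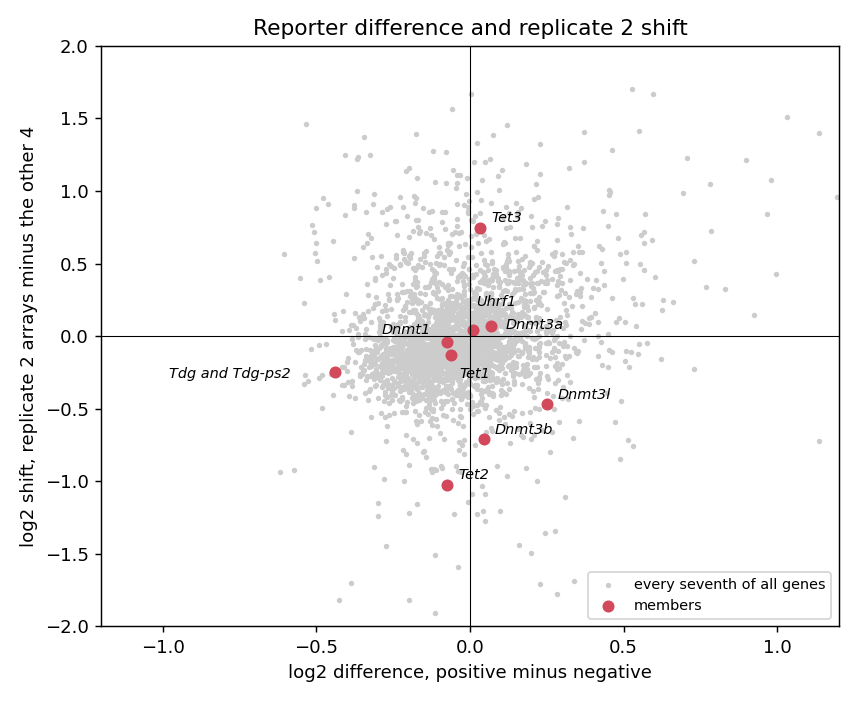
Log2 difference between positive and negative cells (horizontal) against the log2 shift of the 2 replicate 2 arrays from the other 4 (vertical). Red points are the 9 members, Tdg and Tdg-ps2 by their brightest probeset, and grey points are every seventh of all genes, those beyond the axes not drawn. Tet2, Dnmt3b and Tet3 lie far from 0 on the vertical axis only, Tdg and Tdg-ps2 mainly on the horizontal one.

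Of the members, Tet2, Dnmt3b and Tet3 had levels that varied most over the 6 arrays, by 1.29, 0.99 and 1.16. For Tet3 this is the range of its brighter probeset, and the other varied by only 0.40. The promoter windows of these genes are shown for that reason. They come from the same RefSeq table and follow the same marking. Tet2 lies at chr3:133544341-133544640 on the minus strand, Dnmt3b at chr2:153649199-153649498 on the plus strand and Tet3 at chr6:83441629-83441928 on the minus strand.
Tet2: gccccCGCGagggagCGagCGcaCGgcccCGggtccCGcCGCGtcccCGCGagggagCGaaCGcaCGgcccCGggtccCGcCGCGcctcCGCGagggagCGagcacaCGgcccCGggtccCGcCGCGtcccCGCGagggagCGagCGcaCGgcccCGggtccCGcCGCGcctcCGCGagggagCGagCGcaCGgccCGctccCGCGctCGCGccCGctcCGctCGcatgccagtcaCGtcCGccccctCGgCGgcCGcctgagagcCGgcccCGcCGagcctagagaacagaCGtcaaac
Dnmt3b: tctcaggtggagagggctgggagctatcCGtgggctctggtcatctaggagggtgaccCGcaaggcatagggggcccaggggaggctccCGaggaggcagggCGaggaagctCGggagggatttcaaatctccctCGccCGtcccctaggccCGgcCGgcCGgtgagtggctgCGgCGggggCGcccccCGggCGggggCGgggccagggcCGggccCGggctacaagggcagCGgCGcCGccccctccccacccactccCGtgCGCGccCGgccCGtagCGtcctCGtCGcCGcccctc
Tet3: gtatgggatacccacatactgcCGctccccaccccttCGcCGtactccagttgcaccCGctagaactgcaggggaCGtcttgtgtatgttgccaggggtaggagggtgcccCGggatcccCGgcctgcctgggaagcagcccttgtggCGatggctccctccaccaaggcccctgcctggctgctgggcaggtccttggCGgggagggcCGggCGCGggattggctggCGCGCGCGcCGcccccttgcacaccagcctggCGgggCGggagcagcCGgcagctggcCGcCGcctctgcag
The Tet2 window holds 57 CpG pairs and 1 GC box, and 99.8% of all windows hold fewer CpG pairs. That of Dnmt3b holds 30 CpG pairs and 4 GC boxes, and that of Tet3 holds 22 CpG pairs, 2 GC boxes and 1 CCAAT box. The 3 windows listed for Dnmt3l hold 6, 4 and 3 CpG pairs, fewer than the median window. Octamers were found in 0 of the 16 windows of the 9 members. E2F-type motifs were found only at Dnmt1, with 3 in 1 of its 3 windows, and at Uhrf1, with 1 in each of its 2 windows. No match says only that these letters are absent from the window.

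The genes whose levels ran closest to these 3 members over the 6 arrays were found by the root mean square distance after centring each gene on its own mean, among 9968 genes at or above the median level. Closest to Tet2 were Rundc3a at a distance of 0.05, Ftsj1 at 0.05 and Ttc26 at 0.06. For Tet3 they were Ptms at 0.05, Nectin2 at 0.07 and Abca7 at 0.08. Dnmt3b was nearest to Mettl18 at 0.05, Usp28 at 0.06 and Zcchc10 at 0.06. These distances, in log2 units, are small beside the ranges of the 3 members. Taking the 3 nearest of 9968 genes over only 6 arrays favours small distances, so they are a description without a test. Each of these patterns is one of replicate number, that of Tet3 by its brighter probeset.

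The partners of maintenance and targeting mostly overlapped between the groups. Of 17 measured genes, 11 had a higher and 6 a lower mean in positive cells, against 39.8% and 60.2% of all genes. The median of the list was 0.05, and 0 passed the test. Dppa3, a maternal factor that can hold Uhrf1 off chromatin, had 9.04, 10.64 and 9.23 on positive arrays, against 8.24, 8.32 and 9.07 on negative arrays. Positive array 2 stood out, and positive array 1 lay below negative array 3. Its difference was 1.10 (SE 0.44, limma adjusted p = 0.910), and 0.60 without that array. Cdca7l, a relative of the remodelling cofactor Cdca7, differed by -0.36 (SE 0.27), and Hells, the remodeller that opens chromatin for methylation, by 0.10 (SE 0.21). Zfp57, which protects imprints, differed by -0.05 (SE 0.22) and its co-repressor Trim28 by 0.12 (SE 0.13). Without positive array 2, Cdca7l differed by -0.04 and Zfp57 by 0.17, and without negative array 2 Hells differed by -0.06 and Trim28 by 0.01. With the pairs kept whole, Hells was higher in each, by 0.13, 0.07 and 0.09, as were 15.1% of all genes. Cdca7l was lower in each, by -0.15, -0.73 and -0.19, as were 23.7%. Zfp57 and Trim28 had pairs of both signs. Setd2, a histone methyltransferase named after its values were seen, was the 1 gene of the list higher without overlap, by 0.15, where 4.08% of all genes were.

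Partners of the TET enzymes had 3 of 9 measured genes higher and 6 lower, a median of -0.12 and 0 past the test. Ogt, the glycosyltransferase that binds TET proteins, had 11.54, 11.33 and 11.43 on positive arrays, against 11.62, 11.69 and 11.61 on negative arrays. Cxxc5, a CpG-binding zinc finger gene, had 10.01, 9.76 and 10.01 on positive arrays, against 10.11, 10.25 and 10.11 on negative arrays. These were the 2 genes of the list that were lower without overlap, by -0.21 and -0.23, where 7.15% of all genes were. Hmces, a gene for a protein that binds abasic sites, differed by -0.49 (SE 0.61) and was low in replicate 2 of both groups, at 10.23 on positive array 2 and 11.40 on negative array 2. Within the same-numbered pairs Hmces was lower each time, by -0.30, -1.16 and -0.01, as 23.7% of all genes were lower in all 3 pairs. Leaving out positive array 2 while keeping the low negative array 2 gave a difference of 0.22. None of the 3 passed (limma adjusted p of 0.910 to 0.940).

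Readers of methylated CpG sites had 5 of 7 measured genes higher and 2 lower, with a median of 0.05 and 0 past the test. Zbtb33, which encodes the reader Kaiso, was the 1 gene higher without overlap, as 4.08% of all genes were, with 9.09, 8.87 and 8.79 on positive arrays, against 8.76, 8.61 and 8.78 on negative arrays. Zbtb4, a related reader, differed by -0.14 (SE 0.13) and Mbd3, the NuRD subunit of the methyl-CpG-binding family, by -0.09 (SE 0.16), though Mbd3 differed by 0.07 without positive array 2. Base excision and deamination genes, which act downstream of Tdg or beside it, had 6 of 18 measured genes higher and 12 lower, with a median of -0.07. Ung, the uracil glycosylase, and Neil1, a glycosylase for oxidised bases, each differed by -0.26 (SE 0.18 and 0.28). Without positive array 2 these were -0.11 for Ung and 0.06 for Neil1. In this list 0 genes passed and 0 were without overlap. Such a separation was uncommon on these arrays, found upward for 4.08% and downward for 7.15% of the 19938 genes.

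Methyl donor supply had 7 of 15 measured genes higher and 8 lower, with a median of -0.01 and 0 past the test. Mtr, methionine synthase, had 9.61, 10.04 and 9.55 on positive arrays, against 9.50, 9.52 and 9.25 on negative arrays. It was higher without overlap by 0.31 (SE 0.16, limma adjusted p = 0.910), and by 0.15 without positive array 2. Mtrr, its reductase, named after its values were seen, was the other gene of the list higher without overlap, as 4.08% of all genes were, with 10.25, 10.29 and 10.40 on positive arrays, against 10.03, 10.13 and 10.19 on negative arrays. Shmt1, which feeds the folate cycle, differed by -0.23 (SE 0.26), a value that leaving out positive array 2 turned to 0.04.

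Dnmt1 and Uhrf1 are known to rise in S phase, so S phase genes were read beside them. Of 22 measured genes, 3 had a higher and 19 a lower mean in positive cells, with a median of -0.13 and 0 past the test. Of these, 6 were lower without overlap, and Orc1, named after its values were seen, was higher without overlap. Of all genes, 7.15% were lower and 4.08% higher without overlap. Cdc6, the helicase loader, had 8.65, 8.49 and 8.70 on positive arrays, against 9.03, 9.16 and 8.85 on negative arrays, a difference of -0.40 (SE 0.12, limma adjusted p = 0.910). Chaf1b, of the chromatin assembly factor, differed by -0.25 (SE 0.14), and Pcna, the replication clamp that binds Dnmt1, by 0.06 (SE 0.11). The part of the cell cycle in the values of Dnmt1, Uhrf1 and Tdg was not tested.

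Genes known to depend on DNA methylation for their expression form the last lists. Imprinted genes had 8 of 21 measured genes higher and 13 lower, with a median of -0.04, that of all genes, and 0 past the test. Nnat, a paternally expressed gene, had 8.96, 9.10 and 9.56 on positive arrays, against 9.36, 10.24 and 10.18 on negative arrays. The groups overlapped, but Nnat was lower in each pair, with a mean difference of -0.72 (SE 0.27, limma adjusted p = 0.910). Igf2, a paternally expressed growth factor, differed by -0.52 (SE 0.80) and was highest in replicate 2, at 11.78 on the positive and 11.73 on the negative array. Leaving out negative array 2 gave a difference of 0.01, and leaving out positive array 2 gave -1.34. Nap1l5, named after its values were seen, was the 1 imprinted gene lower without overlap, by -0.29, where 7.15% of all genes were.

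Germline genes with promoters known to be methylated in somatic cells had 17 of 19 measured genes higher and 2 lower, with a median of 0.59. Although 0 passed the test, 7 were higher without overlap, as were 4.08% of all genes, and 4 at least 2-fold higher, as were 0.512% of all genes. These 4 were Sycp1, Taf7l, Slc25a31 and Dazl, the last 2 named after their values were seen. Sycp1, of the synaptonemal complex, had 7.36, 8.63 and 6.37 on positive arrays, against 6.26, 5.90 and 5.49 on negative arrays, and Taf7l, a germ cell TFIID subunit, differed by 1.55 (SE 0.33, limma adjusted p = 0.910). This list was drawn up with its direction in these samples known and is not independent evidence. Positive array 2 was again highest for Sycp1, and without that array the median of the list was 0.58.

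**Figure D5:**
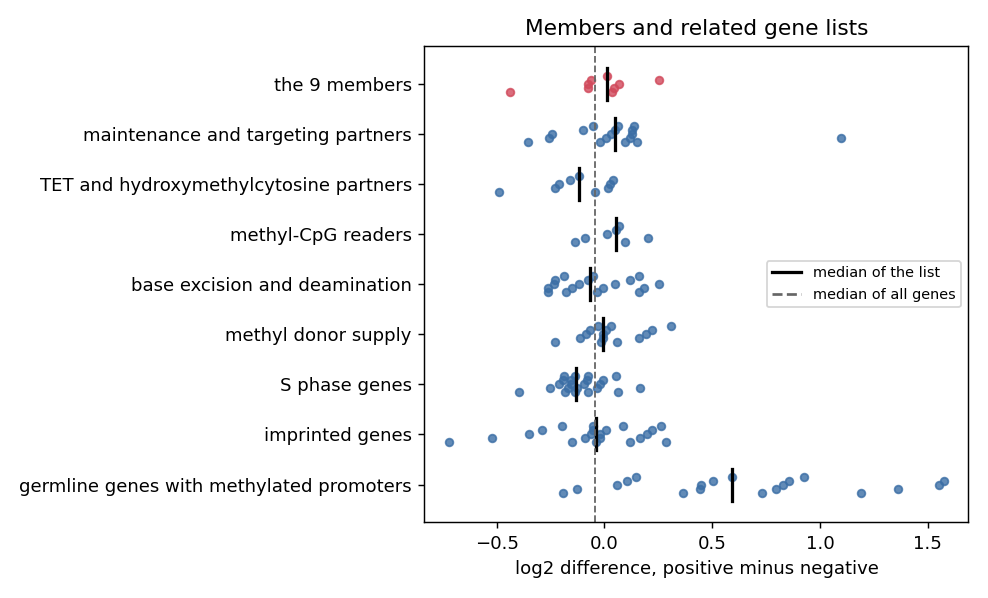
Log2 difference, positive minus negative, of each measured gene, for the 9 members (red) and for 8 related lists (blue). Black bars are medians of a list, and the dashed line is the median of all genes at -0.04. The member at the far left is the pair Tdg and Tdg-ps2, and of the 8 lists the germline list has the highest median, 0.59.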

How the data were processed

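RNA of 6 ES cell samples was measured on 1 array each. The log2 values analysed were deposited by the authors and come, per the submitters' processing notes, from RMA in Affymetrix Expression Console, which corrects background, normalizes quantiles between arrays and summarises probes. Their versions and the genome build were not stated there. RMA pulls dim probesets together, so small differences there are understated, and quantile normalization removes differences in total RNA. No depth exists for arrays, and their number limits the precision.

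Symbols came from the platform annotation: 21789 probesets had 1 symbol, 1621 several and 12146 none listed. The brightest probeset stood for a gene, which left 19938 genes. Titles gave groups and replicate numbers. The test of positive against negative arrays was that of limma (version 3.58.1, under R 4.3.3, two-sided, Benjamini-Hochberg, threshold 0.05), over genes for the single-symbol members and over the 23410 annotated probesets for Tdg and for further probesets. The scripts were tested on simulated data. Separate cultures are not named in the labels, so the p-values reflect only how far these samples scatter, possibly for technical reasons.

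Deviations from the group means correlated across genes between same-numbered arrays at r = 0.55, 0.55 and 0.46 for numbers 1, 2 and 3, above the limit of 0.1 in every pair, so the numbers were taken to pair the samples. This pairing comes from the data, not from the labels. Alternatives were the replicate block, median centring, a second quantile normalization, leaving out the dimmest 30% of genes, all probesets, array weights and leaving out arrays.

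The members and lists were chosen with earlier results of these data known. Beside the members, the text names the 2 genes of each pathway list with the largest differences and others set by rule, and 7 genes picked after their values were seen, as said beside each. Promoter sequences came from RefSeq (GRCm38.p6), which covered all 9 members.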

Additional observations from a re-analysis of the deposited data

How the results depend on the processing

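No alternative made a gene or a member pass the adjusted test: with limma, 0 genes and 0 members passed under all 13, and the count of members higher in positive cells stayed between 4 and 7. The replicate block changed no call. It raised the genes at an unadjusted p under 0.05 from 388 to 1076 higher and from 490 to 1318 lower. Array weights gave 1899 higher and 2952 lower, median centring 297 lower, and leaving out the dimmest 30% of genes 254 lower. Leaving out 1 array gave 225 to 621 higher and 211 to 1486 lower, and leaving out both replicate 2 arrays 1066 higher and 1886 lower. Genes lower without overlap, 1426 in all, numbered 922 with median centring and 820 without the dimmest genes, where fewer genes were tested. Leaving out 1 array, which eases the criterion, gave 1202 to 2194 higher and 1984 to 4400 lower without overlap, and leaving out both replicate 2 arrays 3838 and 5624.

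The differences of Dnmt3l (0.08 to 0.39) and of the brightest Tdg and Tdg-ps2 probeset (-0.54 to -0.23) kept their direction under all 13 alternatives. The mean over the 4 Tdg and Tdg-ps2 probesets, added after seeing the data, lay between -0.49 and -0.26. Array weights turned Dnmt3a to -0.014, Dnmt3b to -0.036 and Tet2 to 0.094, and leaving out both replicate 2 arrays turned Dnmt1 to 0.0068 and Tet2 to 0.03; the cause was not tested. When 1 array was left out, Dnmt1 ranged from -0.15 to -0.02, Dnmt3b from -0.17 to 0.32, Uhrf1 from -0.016 to 0.036, Tet1 from -0.13 to 0.0014, Tet2 from -0.36 to 0.32 and Tet3 from -0.21 to 0.37, so none of the last 5 has a settled sign. No member turned sign under a change of scaling.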
